A study of Rattus norvegicus with 10 samples.

Results

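The 10 genes described here belong to renal calcium, vitamin D and klotho biology and were followed across the diets of a choline deficiency study in rat kidney. They were Calb1, S100g, Trpv5, Trpm6, Casr, Vdr, Cyp24a1, Cyp27b1, Kl and Pth1r, and their rows were taken by gene symbol from the array annotation. Of the 10 genes, 9 were found among the 14506 genes that the annotation named on 29214 probe sets, and each of the 9 was measured by 1 probe set. Trpm6, a magnesium channel, was not listed in that annotation and was not analysed here. The animals were male Wistar rats at weaning age, kept for 6 days on food without or with choline, in which the fat was vegetable oil or menhaden fish oil. Kidneys of 3 animals were pooled for each array, and 5 groups of 2 arrays were compared. The necrotic kidneys carried that word in their label and came from the choline-deficient vegetable oil diet. The deficient vegetable oil kidneys came from the same diet without that word. The control vegetable oil kidneys received choline with the same fat, which the labels call corn oil and the protocol calls corn and hydrogenated oils. The deficient fish oil kidneys received menhaden oil without choline, and the control fish oil kidneys received it with choline. How animals were assigned to the necrotic pools is not stated, and every group is a whole-kidney mixture of cell types. In such bulk samples fewer cells of a type and less RNA per cell cannot be told apart.

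Filtered calcium is taken back mainly along the proximal tubule and thick ascending limb, and the hormone-controlled last share is taken up in the distal convoluted and connecting tubule. There calcium enters through the channel Trpv5, is carried through the cell by the calbindins Calb1 and S100g, and leaves by the exchanger Slc8a1 and the calcium pumps. Parathyroid hormone acts through Pth1r, blood calcium is read by the receptor Casr, and klotho (Kl) lets the phosphate hormone FGF23 bind its receptor. Cyp27b1 makes the active hormone calcitriol from its precursor, Cyp24a1 breaks it down, and Vdr is the nuclear receptor that calcitriol binds.

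Vdr binds DNA at hexamer half-sites, so the members' promoters were searched for them. The sequences are RefSeq's on build GRCr8 and run from 250 bases before to 50 bases after the gene start. The table held 7 of the 10 members, and 6 had a single entry. Calb1, S100g and Cyp24a1 were not among them. The motifs searched were AGGTCA, held by 16.2% of all 33469 promoters of 300 bases, GGTTCA, held by 11.7%, and AGTTCA, held by 14.5%, each read on both strands, and 3 of the 6 promoters held at least 1 of them, against 35.9% of all promoters. Casr had AGGTCA on the reverse strand with its first base at position -23 from the gene start. Cyp27b1 had GGTTCA on the forward strand at -41, and Vdr had GGTTCA on the reverse strand at -136. Kl, Trpv5 and Pth1r had none of the 3. None of the 6 had a pair of half-sites in one direction with a spacer of 3 bases, in which GGGTCA also counted, and 0.0986% of all promoters had one. A match is a run of letters and not a shown binding site. The promoters below are those of 3 genes that were lower in necrotic kidneys and of Trpv5, which did not pass the test there, written 5′ to 3′ with the half-sites in capitals.
Casr, chr11:77740364-77740663, plus strand: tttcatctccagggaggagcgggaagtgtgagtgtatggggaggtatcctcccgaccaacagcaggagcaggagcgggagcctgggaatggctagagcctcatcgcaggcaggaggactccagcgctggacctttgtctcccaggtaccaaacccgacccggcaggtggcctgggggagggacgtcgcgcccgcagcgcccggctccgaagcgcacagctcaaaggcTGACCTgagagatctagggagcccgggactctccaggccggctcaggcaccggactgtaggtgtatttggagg
Cyp27b1, chr7:64756376-64756675, plus strand: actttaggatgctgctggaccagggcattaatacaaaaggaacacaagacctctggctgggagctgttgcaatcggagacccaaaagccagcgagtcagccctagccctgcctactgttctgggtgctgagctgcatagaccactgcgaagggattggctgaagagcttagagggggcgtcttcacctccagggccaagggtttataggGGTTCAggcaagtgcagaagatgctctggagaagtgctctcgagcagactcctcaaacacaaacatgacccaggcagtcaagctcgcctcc
Kl, chr12:5325753-5326052, plus strand: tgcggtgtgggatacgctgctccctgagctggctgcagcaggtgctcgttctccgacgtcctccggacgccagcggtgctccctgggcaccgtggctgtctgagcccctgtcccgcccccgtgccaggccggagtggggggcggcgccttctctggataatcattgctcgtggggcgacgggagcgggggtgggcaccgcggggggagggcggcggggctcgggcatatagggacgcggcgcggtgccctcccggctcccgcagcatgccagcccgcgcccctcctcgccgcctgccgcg
Trpv5, chr4:71529333-71529632, minus strand: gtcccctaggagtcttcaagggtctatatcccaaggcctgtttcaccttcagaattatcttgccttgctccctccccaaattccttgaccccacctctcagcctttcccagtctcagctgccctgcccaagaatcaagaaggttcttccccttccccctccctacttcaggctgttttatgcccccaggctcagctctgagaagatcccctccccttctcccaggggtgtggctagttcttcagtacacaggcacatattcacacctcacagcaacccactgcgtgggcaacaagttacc

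The question put to each gene was whether its level differed with choline, with the oil and with the necrotic label. All values are log2 intensities, so 1 unit is a 2-fold step, and they are compared between groups for 1 probe set at a time. The errors given with differences are limma's moderated standard errors, and a gene rose or fell where its adjusted p was under 0.05. Array medians lay between 7.28 and 7.43, and the pools of a group correlated at 0.990 or above over all probe sets. The 2 pools of a group differed at least 2-fold in 391 probe sets in the necrotic and 488 in the deficient vegetable oil group, against 166 in the control vegetable oil group, and in 271 in the deficient and 473 in the control fish oil group. Deficient vegetable oil replicate 2 correlated with necrotic replicate 1 at 0.984, and replicate 1 did so at 0.974.

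In necrotic kidneys 6 of the 9 measured genes fell and 1 rose against control vegetable oil kidneys. The test called 20.9% of all 29214 probe sets in this comparison, with 10.7% lower and 10.2% higher. The median difference was -1.81 over the 9 genes and 0.06 over all probe sets. The genes that fell were Calb1, S100g, Casr, Kl, Pth1r and Cyp27b1, and Cyp24a1 rose. The uptake channel Trpv5 and the receptor Vdr did not pass the test.

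**Figure D1:**
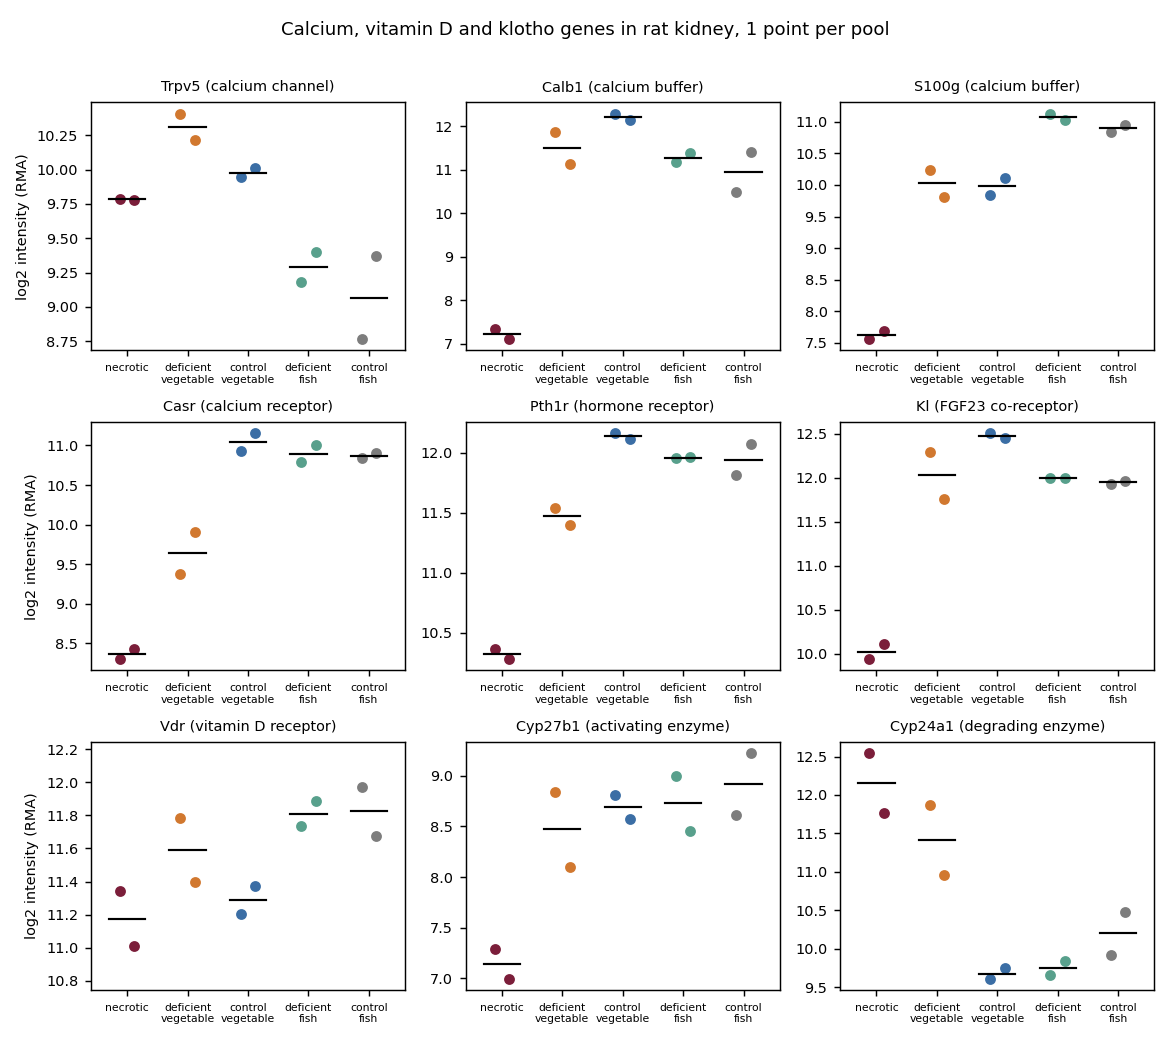
Log2 intensity of each of the 9 measured genes in every pool, with 1 point per pool and a line at the mean of the 2 pools of a group. The necrotic pools are the lowest of all for Calb1, S100g, Casr, Pth1r, Kl and Cyp27b1, and Cyp24a1 is higher in both pools of the necrotic and deficient vegetable oil groups than in all 6 others.

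Calb1, the main calcium buffer of distal tubule cells, had the largest difference of the 9 genes in necrotic against control vegetable oil kidneys. It read 7.35 and 7.11 in necrotic kidneys and 11.87 and 11.13 in deficient vegetable oil kidneys, against 12.29 and 12.13 in control vegetable oil kidneys. The fish oil diets gave 11.17 and 11.39 in deficient kidneys, against 10.50 and 11.41 in control kidneys. The necrotic pools did not overlap with those of any other group and lay near the array medians. No detection calls were used here, so the fold may be understated if the probe set was near background in those pools. The same limit holds for other genes whose necrotic pools lay near or under the array medians, such as S100g, Cyp27b1 and Egf below. The fall in necrotic against control vegetable oil kidneys was -4.98 ± 0.31, or 31.6-fold lower (adjusted p = 4.8e-05). Against deficient vegetable oil kidneys it was -4.28 ± 0.31 (adjusted p = 0.000239), where 9.79% of all probe sets passed. Ordered by mean level, control vegetable oil kidneys stood first, followed by deficient vegetable oil, deficient fish oil, control fish oil and necrotic kidneys, and the 3 middle groups overlapped with one another.

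S100g, the small calbindin, was also lowest in the necrotic group, and its other pools stood apart by oil. Its levels were 7.56 and 7.68 in necrotic kidneys and 10.24 and 9.81 in deficient vegetable oil kidneys, against 9.83 and 10.12 in control vegetable oil kidneys. Under fish oil it read 11.13 and 11.03 in deficient kidneys, against 10.85 and 10.95 in control kidneys. All 4 fish oil pools were above all 6 vegetable oil pools. In limma's test the difference between the oils passed in deficient kidneys (adjusted p = 0.0187) and not in choline-supplemented kidneys (adjusted p = 0.082). The first call did not hold without some single arrays, as given below. How many of all probe sets stood apart by oil in this way was not counted. S100g fell by 2.36 ± 0.16 in necrotic against control vegetable oil kidneys, a 5.12-fold difference (adjusted p = 7.04e-05). Its necrotic pools lay near the medians of their arrays, 7.43 and 7.37, so this fold too may be understated. The deficient and control vegetable oil pools overlapped, with a difference of 0.05 and an interval from -0.32 to 0.43.

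Trpv5, the channel by which calcium enters these cells, did not pass the test in necrotic kidneys. It read 9.79 and 9.78 in necrotic kidneys and 10.41 and 10.21 in deficient vegetable oil kidneys, against 9.94 and 10.01 in control vegetable oil kidneys. The fish oil pools read 9.18 and 9.40 in deficient kidneys, against 8.76 and 9.37 in control kidneys. Both vegetable oil groups and the necrotic group were above all 4 fish oil pools, and how many of all probe sets stood apart likewise was not counted. The difference between necrotic and control vegetable oil kidneys was -0.19 with a 95% interval from -0.63 to 0.24 (adjusted p = 0.525). That interval leaves out a fall of the size seen for Calb1 or S100g.

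Among the receptors, Casr had the widest range. This calcium-sensing receptor, best known in the thick ascending limb and parathyroid, read 8.30 and 8.42 in necrotic kidneys and 9.38 and 9.91 in deficient vegetable oil kidneys, against 10.93 and 11.15 in control vegetable oil kidneys. It read 10.79 and 11.01 in deficient fish oil kidneys, against 10.84 and 10.90 in control fish oil kidneys. The necrotic pools were lowest, the deficient vegetable oil pools came between, and the deficient fish oil pools overlapped with those of both control groups. Casr fell by 2.68 ± 0.18 in necrotic against control vegetable oil kidneys, or 6.42-fold (adjusted p = 6.15e-05). It fell by 1.28 ± 0.18 in necrotic against deficient vegetable oil kidneys (adjusted p = 0.00388).

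Pth1r, the receptor for parathyroid hormone, had the same order of groups. It read 10.37 and 10.28 in necrotic kidneys and 11.54 and 11.40 in deficient vegetable oil kidneys, against 12.16 and 12.11 in control vegetable oil kidneys. It read 11.95 and 11.96 in deficient fish oil kidneys, against 11.81 and 12.07 in control fish oil kidneys. The necrotic pools stood below the deficient vegetable oil pools, and these stood below all the rest. The fall in necrotic against control vegetable oil kidneys was -1.81 ± 0.12, or 3.51-fold (adjusted p = 6.16e-05).

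Kl, the klotho co-receptor, was lower in both necrotic pools than in all other pools. It read 9.94 and 10.11 in necrotic kidneys and 12.30 and 11.76 in deficient vegetable oil kidneys, against 12.51 and 12.45 in control vegetable oil kidneys. The fish oil pools were close together, at 11.99 and 12.00 in deficient kidneys, against 11.93 and 11.97 in control kidneys. The lower deficient vegetable oil pool was replicate 2, which lay below every fish oil pool, while replicate 1 lay above them. Kl fell by 2.45 ± 0.17 in necrotic against control vegetable oil kidneys, or 5.48-fold (adjusted p = 6.24e-05).

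The vitamin D enzymes moved in opposite directions in necrotic kidneys, and their receptor did not pass the test. Cyp24a1, the calcitriol-degrading enzyme, read 12.54 and 11.77 in necrotic kidneys and 11.87 and 10.96 in deficient vegetable oil kidneys, against 9.61 and 9.74 in control vegetable oil kidneys. It read 9.66 and 9.83 in deficient fish oil kidneys, against 9.92 and 10.47 in control fish oil kidneys. The necrotic and deficient vegetable oil pools overlapped with each other and with no other group. Cyp24a1 rose by 2.48 ± 0.34 in necrotic against control vegetable oil kidneys, or 5.59-fold (adjusted p = 0.00136).

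Cyp27b1, the calcitriol-making enzyme of the proximal tubule, read 7.29 and 6.99 in necrotic kidneys and 8.84 and 8.10 in deficient vegetable oil kidneys, against 8.81 and 8.57 in control vegetable oil kidneys. It read 9.0 and 8.46 in deficient fish oil kidneys, against 8.61 and 9.22 in control fish oil kidneys. The necrotic pools were below all others and below the medians of their arrays, and the other 4 groups overlapped. Cyp27b1 fell by 1.55 ± 0.30 in necrotic against control vegetable oil kidneys, or 2.93-fold (adjusted p = 0.00683). Without control vegetable oil replicate 1 the fall was -1.43 and the call was lost (adjusted p = 0.0522).

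Vdr, the receptor for calcitriol, had the narrowest range of the 9 genes, with 0.65 between its highest and lowest group mean. It read 11.34 and 11.01 in necrotic kidneys and 11.78 and 11.39 in deficient vegetable oil kidneys, against 11.21 and 11.37 in control vegetable oil kidneys. It read 11.73 and 11.89 in deficient fish oil kidneys, against 11.97 and 11.68 in control fish oil kidneys. The necrotic and control vegetable oil pools overlapped, and their difference was -0.11 with an interval from -0.52 to 0.30 (adjusted p = 0.707).

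Markers of other kidney segments and of other cells differed between the same groups to unlike extents. In necrotic against control vegetable oil kidneys 10.7% of all probe sets were lower and 10.2% higher. Of 5 measured markers of the distal convoluted and connecting tubule, where Trpv5 and Calb1 are made, 4 fell in necrotic against control vegetable oil kidneys. All 5 also belong to the list of distal transport genes described further on. Their summed linear intensity was 1173 to 1199 in necrotic kidneys and 6010 to 6677 in deficient vegetable oil kidneys, against 11072 to 13029 in control vegetable oil kidneys, and the fish oil diets gave 10148 to 10543 in deficient kidneys, against 10409 to 10787 in control kidneys. The exception was Pvalb, a buffer of the distal convoluted tubule, which lay below the array median in every group. Of 8 proximal tubule markers 7 fell, with sums of 23599 to 26131 in necrotic and 60616 to 67643 in deficient vegetable oil kidneys, against 77735 to 80734 in control vegetable oil kidneys. Of 6 macrophage markers 5 rose, with sums of 7402 to 7483 in necrotic and 2971 to 4121 in deficient vegetable oil kidneys, against 1814 to 1940 in control vegetable oil kidneys. Of 8 tubular injury genes 7 rose, with sums of 64579 to 66195 in necrotic and 34016 to 49337 in deficient vegetable oil kidneys, against 15155 to 15295 in control vegetable oil kidneys. Array intensities have no true 0, so no marker was at 0. Of 5 thick ascending limb markers, where Casr is best known, 4 fell, with sums of 9819 to 11014 in necrotic and 26618 to 29161 in deficient vegetable oil kidneys, against 33495 to 34589 in control vegetable oil kidneys. Of 5 fibroblast markers 4 rose, with sums of 19519 to 22294 in necrotic and 10239 to 12551 in deficient vegetable oil kidneys, against 11292 to 11384 in control vegetable oil kidneys. Of 5 neutrophil markers 4 rose, with sums of 1002 to 1401 in necrotic and 636 to 681 in deficient vegetable oil kidneys, against 515 to 644 in control vegetable oil kidneys. Principal cell and intercalated cell markers also fell, 5 of 6 and 4 of 5. Of the remaining lists, 2 of 4 podocyte markers fell, with a median difference of -0.50, and 2 of 5 endothelium markers, with -0.22. In the adipocyte list 1 of 4 markers fell and in the adrenal gland list 1 of 4, while 0 of 3 lymphocyte markers passed, with a median of 0.04. In deficient against control vegetable oil kidneys 5 of the 8 injury genes and 1 of the 6 macrophage markers rose, and 2 of the 5 distal tubule markers fell. There 0.893% of all probe sets were higher and 0.236% lower. In deficient fish oil against deficient vegetable oil kidneys 5 of the 8 injury genes, 4 of the 6 macrophage markers and 2 of the 5 neutrophil markers fell. In the same comparison 3 of 5 intercalated cell markers and 2 of 5 distal tubule markers rose. Of all probe sets 1.39% were lower there and 0.346% higher. In control fish oil against control vegetable oil kidneys 1 of the 5 fibroblast markers fell and 4 had an unadjusted p under 0.05, with sums of 7818 to 9196 under fish oil. Of all 29214 probe sets 0.0993% were lower there, and 3621 had an unadjusted p under 0.05. The part of these shifts in the differences of the 9 genes was not tested.

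**Figure D2:**
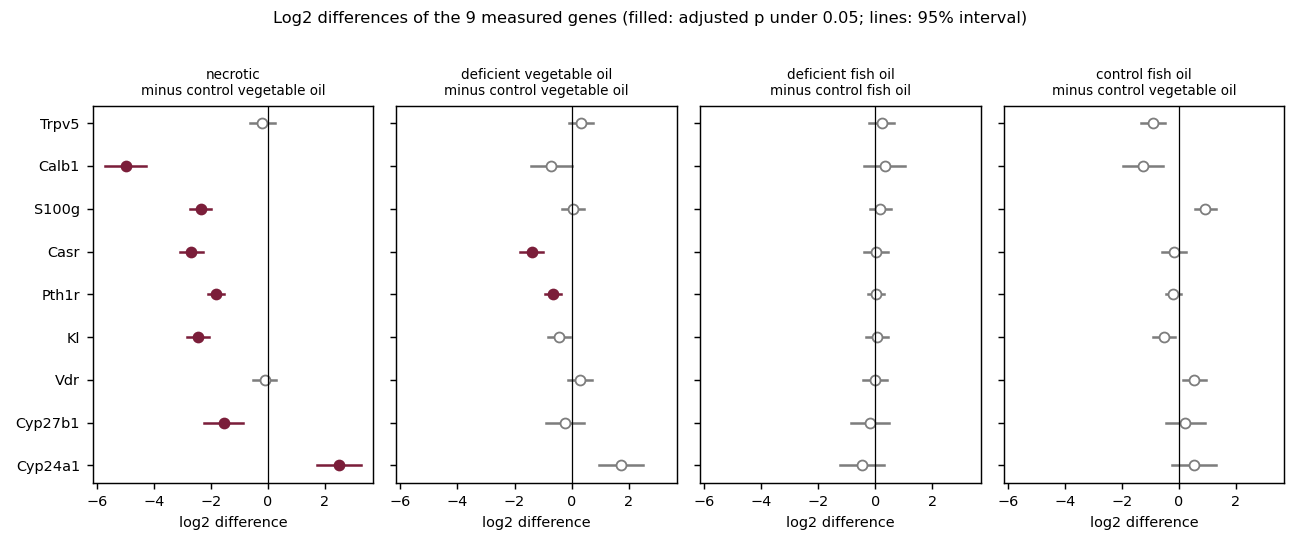
Log2 difference of each of the 9 genes in 4 comparisons, with its 95% interval as a line and filled points where the adjusted p was under 0.05. Of 9 genes, 7 are filled in necrotic against control vegetable oil kidneys, 2 in deficient against control vegetable oil kidneys, and 0 in both comparisons that involve control fish oil kidneys.

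In deficient kidneys without the necrotic label, 2 of the 9 genes passed against control vegetable oil kidneys, and both fell. In this comparison 1.13% of all probe sets passed, of which 0.236% were lower and 0.893% higher. The median difference was -0.22 over the 9 genes and 0.01 over all probe sets. Casr fell by 1.4 ± 0.18, or 2.64-fold (adjusted p = 0.0107), and Pth1r fell by 0.66 ± 0.12, or 1.58-fold (adjusted p = 0.0456). The Casr call was lost without control vegetable oil replicate 1 (adjusted p = 0.0754) or replicate 2 (adjusted p = 0.123). The Pth1r call was lost when any 1 of the 4 arrays was left out, with adjusted p from 0.0506 to 0.267. Cyp24a1 had a difference of 1.74 ± 0.34, with an adjusted p of 0.0549, and it passed at 0.0484 without deficient vegetable oil replicate 2. Kl had a difference of -0.45 ± 0.17 (adjusted p = 0.265), which was -0.72 without deficient vegetable oil replicate 1, where it passed (adjusted p = 0.041), and -0.18 without replicate 2 (adjusted p = 0.758). Calb1 had a difference of -0.71, with an interval from -1.42 to 0.00.

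Within the choline-deficient vegetable oil diet, necrotic kidneys had lower levels of 6 of the 9 genes than deficient vegetable oil kidneys, and none was called higher. Over all probe sets 5.08% were lower and 4.71% higher. The 6 genes were Calb1, S100g, Casr, Kl, Pth1r and Cyp27b1. Kl fell by 2.01 ± 0.17 (adjusted p = 0.000391), and Pth1r by 1.15 ± 0.12 (adjusted p = 0.00113). Cyp27b1 fell by 1.33 ± 0.30 (adjusted p = 0.026), a call that was lost without either necrotic pool or without deficient vegetable oil replicate 1, with adjusted p from 0.0641 to 0.163. Cyp24a1 had a difference of 0.74, with an interval from -0.03 to 1.51 (adjusted p = 0.229). Trpv5 had a difference of -0.53, with an interval from -0.96 to -0.09 (adjusted p = 0.129).

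With fish oil as the fat, choline deficiency gave no call for any of the 9 genes in limma's test, and 0% of all probe sets passed. At an unadjusted p under 0.05 the comparison held 0 of the 9 genes and 1036 probe sets. Casr differed by 0.02 between deficient and control fish oil kidneys, with an interval from -0.39 to 0.44, and Pth1r by 0.01, with an interval from -0.26 to 0.29. Kl differed by 0.05, with an interval from -0.33 to 0.43. The falls under vegetable oil had intervals of their own, from -1.81 to -0.99 for Casr and from -0.94 to -0.38 for Pth1r. The difference between the oils was tested as the interaction given below, which passed for neither gene (limma, adjusted p = 0.113 and 0.285). Cyp24a1 had a difference of -0.45, with an interval from -1.22 to 0.32, and Calb1 one of 0.33, with an interval from -0.38 to 1.04.

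The oil itself was compared in choline-supplemented kidneys. None of the 9 genes passed there in limma's test, and 0.185% of all probe sets did, 0.0856% higher and 0.0993% lower. At an unadjusted p under 0.05 the comparison held 5 of the 9 genes and 3621 probe sets. In control fish oil against control vegetable oil kidneys S100g had a difference of 0.92 ± 0.16 (adjusted p = 0.082), and Vdr one of 0.54 ± 0.18 (adjusted p = 0.303). Calb1 had a difference of -1.26 ± 0.31 (adjusted p = 0.192), Trpv5 one of -0.91 ± 0.19 (adjusted p = 0.135) and Kl one of -0.53 ± 0.17 (adjusted p = 0.28). In these 5 genes the 2 control fish oil pools did not overlap with the 2 control vegetable oil pools. The same held for Casr, Pth1r and Cyp24a1, so the lack of overlap did not set the 5 genes apart. How many of all probe sets had no overlap was not counted.

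In choline-deficient kidneys 3 of the 9 genes passed between the oils, where 1.74% of all probe sets did, 0.346% higher and 1.39% lower. S100g rose by 1.06 ± 0.16 in deficient fish oil against deficient vegetable oil kidneys, or 2.08-fold (adjusted p = 0.0187), and Casr rose by 1.25 ± 0.18, or 2.38-fold (adjusted p = 0.014). Trpv5 fell by 1.02 ± 0.19, or 2.03-fold (adjusted p = 0.0372). The S100g and Casr calls were both lost without either deficient fish oil pool, with adjusted p from 0.062 to 0.129. S100g was also lost without deficient vegetable oil replicate 2 (adjusted p = 0.0826), and Trpv5 without any 1 of the 4 arrays (adjusted p from 0.111 to 0.227). Cyp24a1 had a difference of -1.67 ± 0.34 (adjusted p = 0.0509) and passed at 0.0419 without deficient vegetable oil replicate 2. This comparison and the one in choline-supplemented kidneys share no arrays. The difference between the oils was 1.06 in deficient and 0.92 in choline-supplemented kidneys for S100g, and -1.02 and -0.91 for Trpv5. For the other 7 genes, in the same order, it was -0.23 and -1.26 for Calb1, 1.25 and -0.17 for Casr, and -0.03 and -0.53 for Kl. It was 0.48 and -0.19 for Pth1r, -1.67 and 0.52 for Cyp24a1, 0.26 and 0.22 for Cyp27b1, and 0.22 and 0.54 for Vdr.

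Against necrotic kidneys, deficient fish oil kidneys had higher levels of 7 of the 9 genes and a lower level of 1, where 19.7% of all probe sets passed, 9.25% higher and 10.5% lower. S100g rose by 3.46 ± 0.16 (adjusted p = 2.27e-05) and Calb1 by 4.05 ± 0.31 (adjusted p = 9.78e-05). Vdr rose by 0.63 ± 0.18 (adjusted p = 0.0393), and that call was lost without necrotic replicate 2 or either deficient fish oil pool, with adjusted p from 0.098 to 0.194. Cyp24a1 fell by 2.41 ± 0.34 (adjusted p = 0.00145). These values share the necrotic arrays with the comparisons above.

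The difference between the effects of deficiency under the 2 oils was tested as an interaction, the fish oil effect minus the vegetable oil effect. Without the necrotic pools none of the 9 genes passed in limma's test, where 0.103% of all probe sets did, 0.00685% positive and 0.0958% negative. At an unadjusted p under 0.05 it held 4 of the 9 genes and 2892 probe sets. Casr had an interaction of 1.42 ± 0.26 (adjusted p = 0.113), Cyp24a1 one of -2.19 ± 0.48 (adjusted p = 0.194) and Pth1r one of 0.68 ± 0.17 (adjusted p = 0.285). The effect of choline deficiency on these genes was thus not shown to differ between the oils in kidneys without the necrotic label. With the necrotic pools in place of the deficient vegetable oil pools, 6 of the 9 genes passed, 5 positive and 1 negative, where 8.72% of all probe sets did, 4.9% positive and 3.82% negative. The interaction was 5.31 ± 0.44 for Calb1 (adjusted p = 0.000612) and -2.93 ± 0.48 for Cyp24a1 (adjusted p = 0.00819). Cyp27b1 had an interaction of 1.36 ± 0.42 (adjusted p = 0.0857), and Trpv5 and Vdr had 0.42 and 0.10, with intervals that included 0.

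Among the partner genes of distal calcium and magnesium transport more fell than rose in necrotic kidneys. Of 24 measured genes, 12 fell and 2 rose against control vegetable oil kidneys, where 10.7% of all probe sets were lower and 10.2% higher, and the list's median difference was -0.65, against 0.06 over all probe sets. Egf, a growth factor that acts on magnesium uptake, read 7.68 and 7.67 in necrotic kidneys and 12.49 and 12.01 in deficient vegetable oil kidneys, against 12.56 and 12.65 in control vegetable oil kidneys. It fell by 4.93 ± 0.17 (adjusted p = 3.31e-06). Klk1, the kallikrein secreted by connecting tubule cells, fell by 4.92 ± 0.19 (adjusted p = 6.21e-06). Umod, the uromodulin of the thick ascending limb, fell by 3.29 ± 0.13, and Slc12a3, the sodium chloride carrier of the distal convoluted tubule, by 3.27 ± 0.15.

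The other routes by which calcium leaves and enters the distal cell differed in direction. Slc8a1, the sodium-calcium exchanger, read 7.74 and 8.22 in necrotic kidneys and 8.73 and 8.34 in deficient vegetable oil kidneys, against 9.32 and 9.21 in control vegetable oil kidneys. It fell by 1.29 ± 0.23 in necrotic against control vegetable oil kidneys (adjusted p = 0.00464). The calcium pump Atp2b4 fell by 0.87 ± 0.17 (adjusted p = 0.00733), a call lost without control vegetable oil replicate 1 (adjusted p = 0.0521), while the pump Atp2b1 had a difference of 0.16 ± 0.11 (adjusted p = 0.346). Trpv6, the channel closest to Trpv5, rose by 1.46 ± 0.22 (adjusted p = 0.00211). Its levels were 7.77 and 7.57 in necrotic kidneys and 7.05 and 7.21 in deficient vegetable oil kidneys, against 6.21 and 6.20 in control vegetable oil kidneys, and the levels outside the necrotic group were under the array medians. The other gene of the list that rose was the magnesium carrier Slc41a3, by 1.0 ± 0.15 (adjusted p = 0.00194).

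In deficient against control vegetable oil kidneys 2 of these 24 genes fell and none rose, where 0.236% of all probe sets were lower and 0.893% higher. Klk1 fell by 1.13 ± 0.19 (adjusted p = 0.031), and Kcnj10, a potassium channel of the distal convoluted tubule, by 1.06 ± 0.17 (adjusted p = 0.0296). In deficient fish oil against deficient vegetable oil kidneys the same 2 genes rose, where 0.346% of all probe sets were higher, Klk1 by 1.01 ± 0.19 (adjusted p = 0.0372) and Kcnj10 by 0.87 ± 0.17 (adjusted p = 0.048), and these comparisons share the deficient vegetable oil arrays. Between the oils Kcnj10 was lost with a second quantile normalization (adjusted p = 0.0583), cyclic loess (0.0519) or the replicate block (0.061). With that block Klk1 was lost in both comparisons (adjusted p = 0.0529 for choline and 0.06 between the oils). With only the groups compared, both genes were lost in both comparisons (adjusted p from 0.11 to 0.185). The Klk1 calls were lost without deficient vegetable oil replicate 2 or without either pool of the other group, with adjusted p from 0.127 to 0.247 in the choline comparison and from 0.18 to 0.215 between the oils. The Kcnj10 call in the choline comparison was lost without deficient vegetable oil replicate 1 or either control pool (adjusted p from 0.0613 to 0.239), and the call between the oils without any 1 of the 4 arrays (adjusted p from 0.0608 to 0.287).

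The genes that feed and flank the vitamin D enzymes fell in part. Of 18 measured genes 7 fell and 1 rose in necrotic against control vegetable oil kidneys, where 10.7% of all probe sets were lower and 10.2% higher, with a median of -0.21. Cyp2r1, which makes the precursor that Cyp27b1 uses, read 7.16 and 7.46 in necrotic kidneys and 8.94 and 8.52 in deficient vegetable oil kidneys, against 9.63 and 9.45 in control vegetable oil kidneys, and fell by 2.23 ± 0.16 (adjusted p = 8.51e-05). Gc, the vitamin D carrier protein, fell by 2.20 ± 0.34 (adjusted p = 0.0025). Rxrg, a nuclear receptor of the family that pairs with Vdr, fell by 1.53 ± 0.26 (adjusted p = 0.00376), with levels of 6.50 and 6.74 in necrotic kidneys, against 8.09 and 8.20 in control vegetable oil kidneys. Amn and Lrp2 belong to the endocytic receptor complex that takes up filtered carrier protein in the proximal tubule. Amn fell by 1.51 ± 0.13 and Lrp2, or megalin, by 1.5 ± 0.16, while their partner Cubn had a difference of -0.31 ± 0.12 (adjusted p = 0.112). Rxra, the usual partner of Vdr on DNA, fell by 0.53 ± 0.13 (adjusted p = 0.0193), and that call was lost without any 1 of the 4 arrays, with adjusted p from 0.059 to 0.136. The gene that rose was the transcription factor Snai1, by 0.86 ± 0.21 (adjusted p = 0.021), a call lost without necrotic replicate 2 or either control vegetable oil pool (adjusted p from 0.0867 to 0.107). In deficient against control vegetable oil kidneys 0 of the 18 genes passed in limma's test and 6 had an unadjusted p under 0.05. Of all 29214 probe sets 4435 had such an unadjusted p there. Cyp2r1 had the smallest p, with a difference of -0.81 ± 0.16 (adjusted p = 0.0625), and it passed at 0.0271 without deficient vegetable oil replicate 1.

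**Figure D3:**
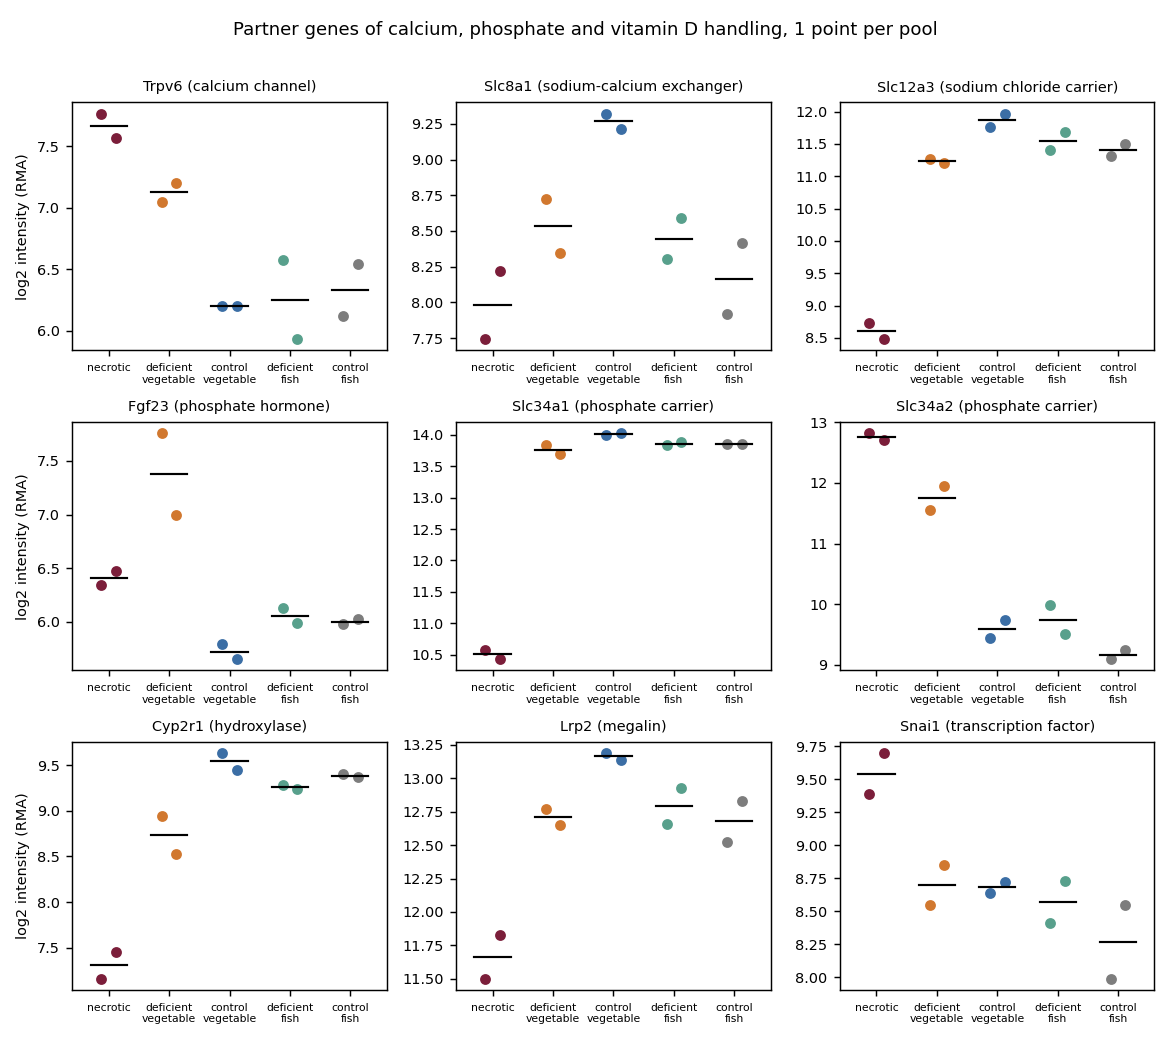
Log2 intensity of 9 partner genes in every pool, with 1 point per pool and a line at the mean of the 2 pools of a group. Slc34a2 and Trpv6 are highest in the necrotic and deficient vegetable oil pools, Fgf23 is highest in the deficient vegetable oil pools, and Slc34a1, Slc12a3, Cyp2r1 and Lrp2 are lowest in the necrotic pools.

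Genes of parathyroid hormone, FGF23 and phosphate handling split in direction. Of 27 measured genes 9 fell and 5 rose in necrotic against control vegetable oil kidneys, with a median of -0.12, beside the same 10.7% lower and 10.2% higher over all probe sets. The proximal phosphate carriers fell, Slc34a3 by 4.01 ± 0.20 (adjusted p = 2.5e-05) and Slc34a1 by 3.51 ± 0.11 (adjusted p = 3.04e-06). Slc34a2, the phosphate carrier better known from intestine and lung, rose by 3.17 ± 0.20 (adjusted p = 4.8e-05). It read 12.82 and 12.71 in necrotic kidneys and 11.55 and 11.94 in deficient vegetable oil kidneys, against 9.44 and 9.75 in control vegetable oil kidneys. The hormone stanniocalcin (Stc1) fell by 1.98 ± 0.18 and the scaffold Pdzk1 by 2.19 ± 0.23. Fgfr1, the receptor that klotho pairs with, had a difference of 0.21 ± 0.10 (adjusted p = 0.18), while Egr1, an early response gene that FGF23 signalling can raise, rose by 1.63 ± 0.34 (adjusted p = 0.00986). The Egr1 call was lost without necrotic replicate 1 (adjusted p = 0.0519) or control vegetable oil replicate 1 (adjusted p = 0.0748).

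In deficient against control vegetable oil kidneys 2 of these 27 genes rose and none fell, where 0.893% of all probe sets were higher and 0.236% lower. Slc34a2 rose by 2.15 ± 0.20 (adjusted p = 0.00383). Fgf23, the phosphate hormone itself and a product mainly of bone, rose by 1.66 ± 0.22 (adjusted p = 0.011). Its levels were 6.34 and 6.48 in necrotic kidneys and 7.76 and 7.0 in deficient vegetable oil kidneys, against 5.79 and 5.65 in control vegetable oil kidneys. It read 6.13 and 5.98 in deficient fish oil kidneys, against 5.97 and 6.03 in control fish oil kidneys. Only 1 of the 10 pools, deficient vegetable oil replicate 1, was above the highest array median for Fgf23. The Fgf23 call was lost without control vegetable oil replicate 1 (adjusted p = 0.0912) or replicate 2 (adjusted p = 0.12). The Fgf23 call was also lost with only the groups compared (adjusted p = 0.116). Between the oils in deficient kidneys Slc34a2 fell by 2.00 ± 0.20 (adjusted p = 0.00294) and Fgf23 by 1.32 ± 0.22 (adjusted p = 0.0231). That comparison shares the deficient vegetable oil arrays, and 1.39% of all probe sets were lower there. With only the groups compared both of these calls were lost (adjusted p = 0.0815 for Slc34a2 and 0.179 for Fgf23). The Fgf23 call between the oils was lost without either deficient fish oil pool, with adjusted p of 0.103 and 0.164.

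Other calcium-binding and calcium release proteins did not fall as a list. Of 25 measured genes 8 rose and 5 fell in necrotic against control vegetable oil kidneys, with a median of 0.03, beside 10.2% higher and 10.7% lower over all probe sets. Rgn, or regucalcin, a calcium-binding protein of liver and proximal tubule, fell by 4.65 ± 0.39 (adjusted p = 0.000146). S100a6 rose by 2.02 ± 0.25 (adjusted p = 0.000959), and the calcium-dependent membrane binder Anxa2 rose by 1.73 ± 0.21 (adjusted p = 0.000843). Its ligand S100a10 rose by 1.34 ± 0.24 (adjusted p = 0.00462). S100a1, of the same family, fell by 1.05 ± 0.14 (adjusted p = 0.00145), as S100g did. Anxa2 was the 1 gene of this list that passed between the oils in deficient kidneys, where it fell by 1.08 ± 0.21 (adjusted p = 0.0468), a call lost without deficient vegetable oil replicate 2 or either deficient fish oil pool (adjusted p from 0.0837 to 0.279) and with the replicate block (adjusted p = 0.0709), a second quantile normalization (0.0539) or cyclic loess (0.0526). With only the groups compared the Anxa2 call was lost too (adjusted p = 0.217). In deficient against control vegetable oil kidneys 0 of the 25 genes passed in limma's test and 6 had an unadjusted p under 0.05. Of all 29214 probe sets 4435 had such an unadjusted p there. The smallest p of the list was that of the calcium channel Orai1, with a difference of 0.55 ± 0.11 (adjusted p = 0.0657).

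In the fish oil comparison of deficient with control kidneys, 0 genes of the 4 lists passed in limma's test, as did 0% of all probe sets. The 2 genes with an unadjusted p under 0.05 were Slc34a2 and Stc1 of the phosphate list, beside 1036 of all 29214 probe sets. Control fish oil against control vegetable oil kidneys also gave 0 calls in the lists, where 0.185% of all probe sets passed. There 5 distal transport genes, 6 vitamin D genes, 2 phosphate genes and 1 other calcium-binding gene had an unadjusted p under 0.05, beside 3621 of all probe sets. Slc8a1 had the smallest p of the distal transport list there, with a difference of -1.10 ± 0.23 (adjusted p = 0.133).

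Among the 9 genes the closest pair across the 10 arrays was Cyp27b1 and Pth1r, with a root mean square difference of 0.26 between their log2 levels after each was centred on its own mean. Kl and Pth1r differed by 0.32, while Calb1 and Cyp24a1 differed by 2.60. Calb1 and S100g differed by 1.01 from each other, and of the other 8 genes Kl was nearest to Calb1, at 0.93. Among all named genes outside the members, the gene nearest to Kl was Slc5a2, the proximal tubule glucose carrier, at 0.098. Tinag and Slc22a2 followed at 0.13. Calb1 was nearest to Folh1 at 0.25, then to Rgn at 0.38. Casr was nearest to Inpp5j at 0.20, S100g to Ehhadh at 0.23, Trpv5 to Slc15a3 at 0.21 and Pth1r to Caln1 at 0.11. Cyp27b1 was nearest to Slc25a15 at 0.17 and Cyp24a1 to Steap1 at 0.30, followed by Lif at 0.35. A small distance is easier to reach for a gene that varies little. The root mean square of a member about its own mean was 0.48 for Trpv5, 0.66 for Pth1r, 0.69 for Cyp27b1 and 0.87 for Kl. It was 1.03 for Cyp24a1, 1.04 for Casr, 1.24 for S100g and 1.77 for Calb1. Vdr, whose group means spanned less than 1 unit, was left out of this search. These are descriptions over 10 arrays of 5 groups, and the points share their arrays.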

How the data were processed

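Kidney RNA of 10 pools was measured on expression arrays. The authors deposited log2 intensities for each probe set, which they obtained with RMA, per the submitters' processing notes. No software, version or genome build is stated in the sources at hand. These values were used as deposited, with no filter and no further scaling, and all 10 arrays entered 1 fit of 5 groups in limma 3.58.1 (R 4.3.3, lmFit and eBayes, 5 residual and 3.59 prior degrees of freedom). Over 9 contrasts, 2 of them interactions, p-values were adjusted by Benjamini-Hochberg over all 29214 probe sets, with a threshold of 0.05. Differences are log2, errors are moderated standard errors, intervals are 95%, and the labels do not say whether the 2 pools of a group were independent beyond holding different animals. Precision is limited by how few arrays there are.

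Of the probe sets, 15310 had 1 gene symbol in the platform annotation, which can be old, 323 had several and 13581 were not listed. The probe set with the highest mean stood for a gene. Members, the 4 partner lists and the marker lists were chosen with earlier results of these data known. From each partner list up to 4 genes with the largest differences among those that passed in a described comparison were named, or the 1 with the smallest p where none passed. The genes Trpv6, Slc8a1, Atp2b1, Atp2b4, Fgfr1, Egr1, Lrp2, Cubn, Rxra, Snai1, Slc41a3, Stc1, S100a1 and Pvalb were named after their values were seen. The nearest genes were sought for members whose group means spanned at least 1 log2 unit. The genes searched were not filtered by range. Alternatives were median centring, a second quantile normalization, cyclic loess, a filter on mean level (25th percentile), a trend and robust prior, only the groups compared, the replicate number as a block and leaving out each array. The list of RefSeq promoters was read with Python 3.11.15.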

Additional observations from a re-analysis of the deposited data

Results flagged for a closer look

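For 6 of the 9 genes the choline by oil interaction passed when the necrotic pools stood for the deficient vegetable oil diet (limma's test of the difference itself, adjusted over all probe sets). With the deficient vegetable oil pools without that label, 0 of the 9 genes passed, where 0.103% of all probe sets did. The value is the difference of deficient fish oil against control fish oil kidneys, minus that of necrotic against control vegetable oil kidneys. It was 5.31 for Calb1 (adjusted p = 0.000612), 2.71 for Casr (adjusted p = 0.000967) and 2.54 for S100g (adjusted p = 0.000895). It was 2.51 for Kl and 1.82 for Pth1r (adjusted p = 0.000967 for both). For Cyp24a1 it was -2.93 (adjusted p = 0.00819). Over all probe sets 8.72% passed this test, 4.9% positive and 3.82% negative. The same 6 genes passed in necrotic against control vegetable oil kidneys, where 20.9% of all probe sets did. None of them passed in deficient against control fish oil kidneys, where 0% did. These 2 comparisons are the parts of the interaction and add no separate support to it. The word necrotic marks pools within 1 diet in 1 arm, so the oil and that label cannot be told apart in these values.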

How the results depend on the processing

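Of 81 tests of the 9 genes over 9 contrasts 32 passed, and no difference that passed changed its sign under any alternative. Of all probe sets 8.72% to 20.9% passed in contrasts with necrotic arrays, and 0% to 1.74% in the others. The contrasts share arrays, so the 81 tests are not independent. Over the alternatives and left-out arrays, 345 repeats of tests that passed still did and 31 did not, and 11 repeats of tests that had not passed did. In deficient against control vegetable oil kidneys 2 genes passed, against 1 with the replicate block, 0 with only the groups compared, which leaves fewer arrays, and 0 to 2 with an array left out. The Pth1r call was lost there with the replicate block (adjusted p = 0.0776), and Cyp24a1 passed with a second quantile normalization (adjusted p = 0.0472), cyclic loess (0.0476) or the filter (0.0391). In deficient fish oil against deficient vegetable oil kidneys 3 genes passed, against 0 with only the groups compared and 0 to 2 with an array left out. Trpv5 did not pass there with median centring (adjusted p = 0.0591), while 4 genes passed with a second quantile normalization, cyclic loess or the filter, which added Cyp24a1 (adjusted p = 0.047, 0.0451 and 0.0359), and with the trend and robust prior, which added Pth1r (0.0465). In control fish oil against control vegetable oil kidneys 0 passed, against 1 (S100g, adjusted p = 0.0428) with a trend and robust prior. The cause was not tested.

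Median centring moved the median of all probe sets by -0.11 in necrotic against control vegetable oil kidneys, and 63.8% of the calls were then lower, against 51.0% without it. In deficient fish oil against necrotic kidneys the shift was 0.11, and 39.6% were lower, against 53.1%. No member moved by more than 0.13 under any of the 3 scalings. Over all probe sets 330 passed in deficient against control vegetable oil kidneys, against 540 with the trend and robust prior and 82 with only the groups compared. In control fish oil against control vegetable oil kidneys 54 passed, against 115 with the filter, 124 with the trend and robust prior and 5 with only the groups compared. Between the oils in deficient kidneys 507 passed, against 25 with only the groups compared, and in necrotic against deficient vegetable oil kidneys 2860 passed, against 654. In the interaction without necrotic pools 30 passed, against 61 with the filter, 67 with the trend and robust prior, 11 with the replicate block and 14 with only the groups compared.

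Leaving out 1 array also moved these counts. The count of 330 became 714 and 146 without deficient vegetable oil replicate 1 and 2, and 40 and 32 without control vegetable oil replicate 1 and 2. The count of 507 became 691 and 239 without the same deficient vegetable oil replicates, and 137 and 87 without deficient fish oil replicate 1 and 2. The 54 between the control oils became 3 to 6 without any 1 of the 4 arrays, and the 30 of the interaction became 90 without deficient vegetable oil replicate 1, 24 without replicate 2, 21 and 7 without deficient fish oil replicate 1 and 2, and 0 without any 1 control array. In necrotic against control vegetable oil kidneys 6098 passed, against 3003 to 4638 with an array left out, and in necrotic against deficient vegetable oil kidneys 1040 to 3125 did.

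Same-numbered arrays of different groups did not deviate together. The correlation of their deviations ran from -0.17 to 0.14, and 3 of 10 pairs were over 0.1, so the numbers were not taken as pairs. Averaging all probe sets of a gene was not run, since each member had 1.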
